A study of Homo sapiens with 24 samples.

Results

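The ERBB receptors and 3 of their inhibitors were followed in lung adenocarcinoma cells through combined EGFR and MEK inhibition, with and without knockout of YAP1, the coactivator that the Hippo kinases restrain. The genes were the 4 receptors EGFR, ERBB2, ERBB3 and ERBB4 and the inhibitors ERRFI1, LRIG1 and LRIG3, taken by symbol as 7 of the 25365 gene rows of the authors' table. PC9 and HCC4006, established lines from human lung adenocarcinoma with an activating EGFR mutation, were each grown as control cells, labelled CTRL, and as YAP1 KO cells, in which YAP1 was knocked out per the labels. Cells received DMSO, the solvent, or OT, which is the EGFR inhibitor osimertinib at 100 nM with the MEK inhibitor trametinib at 30 nM, and were lysed 24 hours later. The 8 groups were PC9 CTRL in DMSO, PC9 CTRL in OT, PC9 YAP1 KO in DMSO, PC9 YAP1 KO in OT and the same 4 of HCC4006. Each held 3 replicates, so 24 mRNA libraries were compared. The table's columns carry 1 YAP1 KO tag per line. The labels do not say whether that was a clone or a pool, or what the CTRL cells carried. P-values therefore measure the spread between replicate libraries and not between knockouts.

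ERBB receptors are tyrosine kinases that signal as pairs. EGFR and ERBB4 bind ligands and carry active kinases, ERBB2 has no known ligand and is the preferred partner of the others, and ERBB3 binds neuregulins, has a weak kinase and couples strongly to PI3K. ERRFI1, also called MIG6, binds the EGFR kinase domain and blocks pairing, and its transcription is known to follow ERK signaling as a negative feedback. LRIG1 is a membrane protein that promotes degradation of ERBB receptors, and LRIG3 is its relative with a less settled role. Loss of ERRFI1 and gain of ERBB2 or ERBB3 are known as routes by which lung cancers tolerate EGFR inhibitors.

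Stretches upstream of transcription starts are shown for ERRFI1, whose RNA fell with OT, for EGFR, the drug target, and for every motif match, because 3 factors tied to the treatments have known letters. RefSeq's promoter table on GRCh38.p14 held 11 windows for 6 of the 7 genes, all but ERBB3, of which the 250 bases before each start were searched on both strands. The letters were GGAATG for TEAD, the factors that YAP1 binds, GTAAACA for FOXO, which PI3K signaling restrains, and TGANTCA for AP-1, whose subunits are induced by ERK. The motifs do not overlap in the matches found. Below are the 250 bases before the ERRFI1 start (chr1:8026310-8026559, minus strand) and before the first EGFR start (chr7:55018767-55019016, plus strand), neither of which held any of the 3 motifs on either strand. The remaining lines give the stretches around every match in a window of the 7 genes, with the motif in capitals. They lie near a second EGFR start (chr7:55109597-55109623, chr7:55109693-55109719 and chr7:55109715-55109740, plus strand), before an ERBB2 start (chr17:39687862-39687888, plus strand) and before an LRIG1 start that lies inside the gene (chr3:66405917-66405943 and chr3:66405828-66405854, minus strand). In GENCODE v29 the ERBB2 window overlaps an ERBB2 UTR and coding sequence of PGAP3, the second EGFR window an EGFR UTR and the LRIG1 window an LRIG1 exon. The other 3 LRIG1 windows and both LRIG3 windows held no match.
ERRFI1: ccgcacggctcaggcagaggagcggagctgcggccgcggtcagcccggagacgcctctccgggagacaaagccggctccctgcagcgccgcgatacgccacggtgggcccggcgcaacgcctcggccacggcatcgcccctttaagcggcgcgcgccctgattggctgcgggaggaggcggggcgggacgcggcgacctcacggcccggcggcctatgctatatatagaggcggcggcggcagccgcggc
EGFR: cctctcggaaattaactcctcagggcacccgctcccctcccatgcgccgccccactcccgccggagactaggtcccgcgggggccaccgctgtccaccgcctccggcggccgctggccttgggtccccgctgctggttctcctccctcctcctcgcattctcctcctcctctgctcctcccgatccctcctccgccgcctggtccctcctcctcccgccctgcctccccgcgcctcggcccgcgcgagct
EGFR second start, AP-1: ctttcccatgTGAGTCAttgctagtca
EGFR second start, AP-1 nearer the start: tataaactttTGACTCAcaggacaaat
EGFR second start, TEAD: caaattctatCATTCCtttgggccta
ERBB2, AP-1: ggagcggaagTGATTCAgagcgccccc
LRIG1, AP-1: gggaagccatTGAGTCAtcggccatgg
LRIG1, AP-1 nearer the start: gtcacaagtcTGACTCAgcacccagat

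AP-1 letters stood in 3 of the 11 windows, against 6.57% of the 35116 windows of the same length in the table, TEAD letters in 1, against 11.9%, and FOXO letters in 0, against 2.98%. A match is a description of the letters and not a binding site. The deposited table gives 1 value per gene, so the use of the different starts could not be read from it.

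Levels are given in FPKM as the authors made them, that is fragments divided by transcript length and by the mapped fragments, a unit in which genes of 1 library can be set side by side. Absolute depth is unknown, and relative depth, read from the steps that 1 fragment makes in low genes, ran from 0.945 to 1.21 in 23 libraries and was 1.42 in HCC4006 CTRL OT replicate 1. YAP1 was at 33.8 to 43.3 FPKM in PC9 CTRL and 10.1 to 12.4 in PC9 YAP1 KO libraries, and at 13.9 to 19.7 and 3.9 to 6.34 in HCC4006, so YAP1 RNA was lower but present in every YAP1 KO library. DUSP6, an ERK phosphatase induced by ERK, was at 4.68 to 9.32 FPKM under DMSO and 0 to 0.166 under OT in PC9, and at 42.6 to 55.2 and 0.0575 to 0.86 in HCC4006. Of 9 lung epithelial markers, 6 reached 1 FPKM in every PC9 group and 7 or 8 in each HCC4006 group. The lineage markers NKX2-1, NAPSA and SFTPB, were below that level in PC9, and SFTPB was also below it in HCC4006. Of the blood markers, PTPRC, CD3E and HBB stayed at or below 0.133 FPKM, while CD68 ranged from 20.9 to 108 and was highest in HCC4006 under OT. Of 7 fibroblast markers COL1A1 and COL1A2 passed 1 FPKM, and the summed level in HCC4006 CTRL cells was 3.57 to 3.91 under DMSO and 19.3 to 20.5 under OT. Among 4 endothelial markers only KDR passed 1 FPKM, in the HCC4006 OT groups.

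HCC4006 CTRL OT replicate 1 stood apart from the other libraries of its group. In it 92 of 8387 genes with at least 5 FPKM (1.1%) differed at least 1.5-fold from both other replicates, against 0.307% to 0.637% in the other 23 libraries. EGFR was among them, and the EGFR results that rest on this library are given below with and without it.

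Under OT the receptor RNAs shifted from EGFR toward ERBB2 and ERBB3, while ERRFI1 fell in both lines. ERBB2 and ERBB3 rose in every OT comparison, by 1.6-fold to 3.15-fold and by 1.89-fold to 3.89-fold in the ratio of group means. EGFR did not rise in any of them. ERRFI1 dropped to between 14.6% and 45% of its DMSO level, LRIG3 went down in PC9 and up in HCC4006, and ERBB4 was near 0 throughout. In bulk RNA a smaller number of expressing cells and less RNA per cell cannot be told apart.

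**Figure D1:**
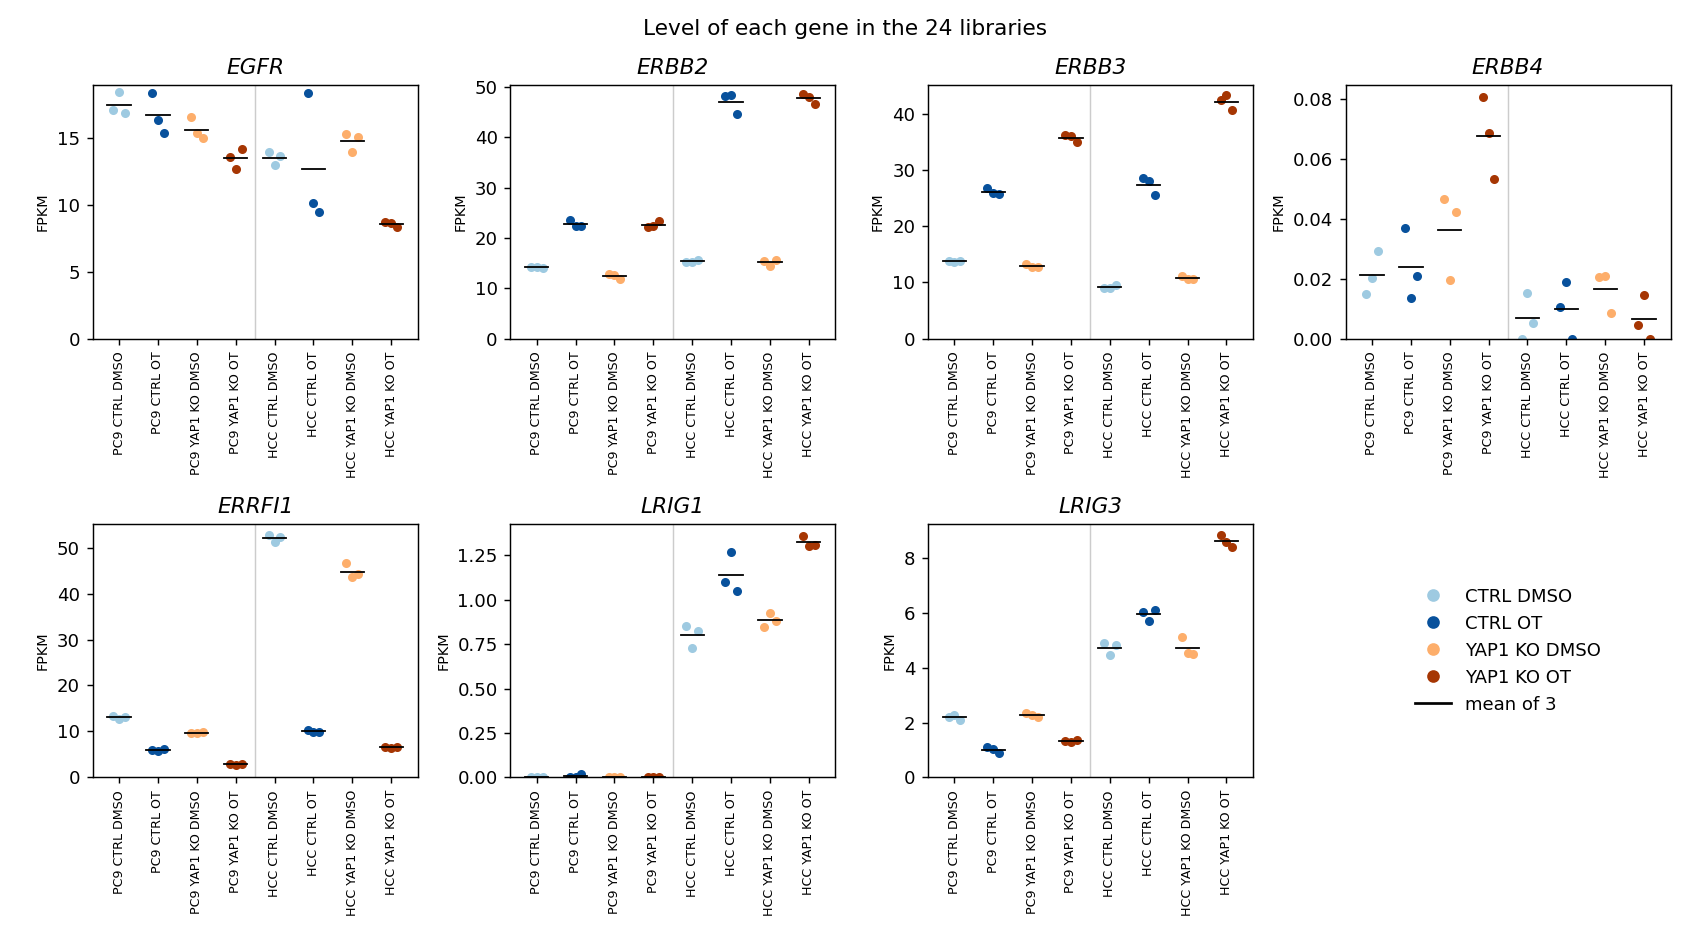
FPKM of the 7 genes in each library (points) with the group mean (bar), for the 8 groups in PC9 and HCC4006 (HCC on the axis labels); each panel has its own vertical axis in FPKM. ERBB2 and ERBB3 are higher and ERRFI1 is lower under OT in every library, and the EGFR value of 18.4 in 1 HCC4006 CTRL OT library lies away from the 10.2 and 9.46 of its group.

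Tests were made with limma on log2(FPKM + 1), fitted over all genes with at least 1 FPKM in at least 3 libraries of the fit, and genes with an adjusted p (Benjamini-Hochberg, over all genes of the fit) under 0.05 are named as called. In PC9 5 of the 7 genes passed that filter and in HCC4006 6. ERBB4 passed in neither line. LRIG1 passed only through the OT groups of HCC4006, so its test there had to lean toward a difference, and it is left out of the counts for OT. In CTRL cells, OT changed 4 of the 5 tested genes in PC9, where 73.0% of all genes were called, and, LRIG1 aside, 4 of 5 in HCC4006, where 81.6% were. In YAP1 KO cells it changed 5 of 5 against 78.3% in PC9 and, LRIG1 aside, 5 of 5 against 82.8% in HCC4006. The shares are near those of all genes and are no result in themselves, so the genes are described below by their sizes. For CTRL cells the tested genes, LRIG1 included, had median log2 changes of -0.06 (PC9) and 0.26 (HCC4006), against -0.04 and 0.09 over all genes.

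EGFR, the target of osimertinib, was at 17.1, 18.5 and 16.9 FPKM in PC9 CTRL cells under DMSO and 18.4, 16.4 and 15.4 under OT. These libraries overlapped, and the log2 change was -0.06 (SE 0.0653, limma adjusted p = 0.397, 95% interval -0.21 to 0.08). In PC9 YAP1 KO cells it was at 16.6, 15.4 and 15 FPKM under DMSO and 13.6, 12.7 and 14.2 under OT. All 3 OT libraries were lower, to 86.2% of the DMSO mean (log2 change -0.20, adjusted p = 0.0142). That call was lost (adjusted p = 0.206) when all libraries were scaled to 1 FPKM sum, and without YAP1 KO DMSO replicate 1 (adjusted p = 0.061) or YAP1 KO OT replicate 2 (adjusted p = 0.0616).

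HCC4006 CTRL cells had EGFR at 14, 13 and 13.7 FPKM under DMSO and at 18.4, 10.2 and 9.46 under OT. The value of 18.4 belongs to replicate 1, the library that stood apart, and lies above every DMSO library, while the other OT libraries lie below them. The log2 change was -0.15 (SE 0.172, limma adjusted p = 0.429) with that library and -0.43 (adjusted p = 1.39e-05) without it. With all libraries, scaling to 1 FPKM sum turned its sign (0.06). In HCC4006 YAP1 KO cells EGFR was at 15.3, 14 and 15.1 FPKM under DMSO and 8.77, 8.66 and 8.37 under OT. It fell there to 58% of its DMSO mean (log2 change -0.72, adjusted p = 0.00191). SEC61G, LANCL2 and VOPP1, the neighbours of EGFR in the RefSeq gene order of GRCh38.p14, were not raised in replicate 1 of the CTRL OT group. LANCL2, for example, was at 16.1, 17.2 and 16.7 FPKM in the 3 libraries.

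ERBB2, the partner receptor without a known ligand, was tight between replicates. In PC9 CTRL cells it went from 14.2, 14.3 and 14 FPKM to 23.5, 22.3 and 22.3 under OT, and in YAP1 KO cells from 12.8, 12.6 and 11.9 to 22.1, 22.3 and 23.3. The groups did not overlap, and the log2 changes were 0.64 (SE 0.0372, limma adjusted p = 1.26e-08) and 0.81 (adjusted p = 8.82e-10). In HCC4006 the rise was larger, from 15.2, 15.2 and 15.7 FPKM to 48.3, 48.4 and 44.6 in CTRL cells. YAP1 KO cells had 15.5, 14.5 and 15.6 FPKM under DMSO and 48.6, 48.1 and 46.7 under OT. ERBB2 thus stood at 3.06 times its DMSO level in CTRL cells (log2 change 1.55, limma adjusted p = 1.47e-11) and 3.15 times in YAP1 KO cells (1.59, adjusted p = 8.43e-12).

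ERBB3, the neuregulin receptor that couples to PI3K, was at 13.8, 13.6 and 13.9 FPKM in PC9 CTRL cells and 26.8, 25.9 and 25.7 under OT. PC9 YAP1 KO cells had 13.2, 12.8 and 12.7 FPKM under DMSO and 36.3, 36 and 35 under OT. OT raised it 1.89-fold in CTRL cells (log2 change 0.88, SE 0.0307, limma adjusted p = 1.55e-10) and 2.77-fold in YAP1 KO cells (1.40, adjusted p = 1.38e-12). HCC4006 CTRL cells had the lowest starting level, 9.05, 9.02 and 9.5 FPKM, and reached 28.6, 28 and 25.6 under OT. HCC4006 YAP1 KO cells went from 11.2, 10.7 and 10.6 FPKM to 42.4, 43.4 and 40.6, the highest ERBB3 levels of the study. The log2 changes were 1.48 (SE 0.0495, limma adjusted p = 4.98e-11) and 1.87 (adjusted p = 4.47e-12), and no OT library overlapped a DMSO library in either line.

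ERBB4, the second ligand-binding receptor with an active kinase, was at or below 0.0806 FPKM in all 24 libraries and was not tested. PC9 YAP1 KO cells under OT held its highest values, 0.0806, 0.0686 and 0.0534 FPKM, and in HCC4006 no library passed 0.0208. At this level the table shows only that the other 3 receptors made up almost all ERBB receptor RNA.

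The receptor make-up can be read as shares of the summed FPKM of the 4 receptors, given here without a test as mean ± SD of 3 libraries. EGFR made up 38.4% ± 1.28 of the sum in PC9 CTRL cells under DMSO and 25.5% ± 1.28 under OT. In PC9 YAP1 KO cells its share was 38.1% ± 0.619 under DMSO and 18.8% ± 0.843 under OT. The shares in HCC4006 were 35.6% ± 0.925 and 14.3% ± 4.35 in CTRL cells (11.8% without the library that stood apart), and 36.2% ± 0.398 and 8.72% ± 0.0775 in YAP1 KO cells.

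The receptor that took the first place under OT differed between the groups. In PC9 YAP1 KO cells ERBB3 made up 49.8% of the sum under OT, ahead of ERBB2 at 31.4%, and in PC9 CTRL cells 39.9%, ahead of ERBB2 at 34.6%. In HCC4006 ERBB2 led, with 54.2% in CTRL and 48.5% in YAP1 KO cells, and ERBB3 made up 31.5% and 42.8%. The sum itself rose from 45.5 to 65.5 FPKM in PC9 CTRL cells and from 38.2 to 87.2 in HCC4006 CTRL cells (83.1 without the library that stood apart). ERBB3 stood at 0.79 times the EGFR level in PC9 CTRL cells under DMSO and at 2.66 times in YAP1 KO cells under OT. The same ratio was 0.677 and 4.9 in HCC4006.

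**Figure D2:**
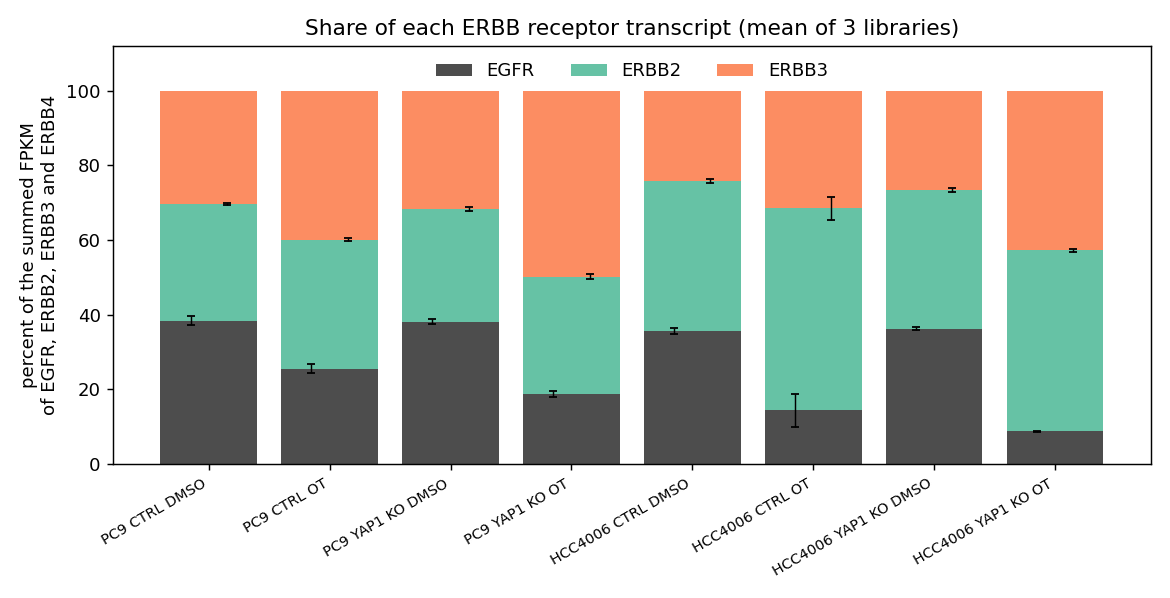
Share of each ERBB receptor in the summed FPKM of the 4 receptors, in percent, as stacked bars of group means with n = 3 libraries; error bars are SD, and ERBB4 is too small to see. The EGFR part is smaller under OT in both lines and smallest, at 8.72%, in HCC4006 YAP1 KO cells.

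ERRFI1, the intracellular EGFR inhibitor, fell under OT in both lines and genotypes. In PC9 CTRL cells it was at 13.4, 12.7 and 13.1 FPKM under DMSO and 5.93, 5.67 and 6.08 under OT. PC9 YAP1 KO cells had 9.65, 9.64 and 9.84 FPKM and then 2.86, 2.7 and 3. The levels under OT were 45% and 29.4% of those under DMSO, with log2 changes of -1.03 (SE 0.0428, limma adjusted p = 6.09e-10) and -1.48 (adjusted p = 1.39e-11). HCC4006 started higher, at 52.7, 51.3 and 52.4 FPKM in CTRL and 46.6, 43.5 and 44.2 in YAP1 KO cells. Under OT it was at 10.4, 9.8 and 9.98 FPKM in CTRL and 6.61, 6.46 and 6.52 in YAP1 KO cells. ERRFI1 thus dropped to 19.3% and 14.6% of its DMSO level (log2 changes -2.27 and -2.60, limma adjusted p = 4.16e-13 and 7.83e-14), and no libraries overlapped. Set against its target, ERRFI1 went from 0.75 to 0.355 times the EGFR level in PC9 CTRL cells and from 3.84 to 0.861 ± 0.261 times (SD, n = 3) in HCC4006 CTRL cells. Without the library that stood apart the last ratio was 1.01.

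LRIG3 was the only one of the tested genes called in opposite directions by OT in the lines. PC9 CTRL cells had 2.22, 2.28 and 2.11 FPKM under DMSO and 1.11, 1.03 and 0.888 under OT, and YAP1 KO cells 2.34, 2.26 and 2.19 and then 1.33, 1.31 and 1.37. It fell by 0.67 (SE 0.0558, limma adjusted p = 3.27e-07) in CTRL and by 0.48 (adjusted p = 5.59e-06) in YAP1 KO cells on the log2 scale. HCC4006 CTRL cells had 4.9, 4.47 and 4.84 FPKM under DMSO and 6.04, 5.71 and 6.12 under OT, and YAP1 KO cells 5.13, 4.55 and 4.49 and then 8.86, 8.6 and 8.4. There it rose by 0.28 (limma adjusted p = 7.06e-04) and 0.75 (adjusted p = 9.68e-08), and in every line and genotype the OT and DMSO libraries were separate. Both directions held in every alternative setting that could be fitted.

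LRIG1, which promotes receptor degradation, was listed at 0 in 11 of the 12 PC9 libraries and at 0.0214 FPKM in the other. In HCC4006 it was low but present, at 0.853, 0.73 and 0.826 FPKM in CTRL cells under DMSO and 1.1, 1.27 and 1.05 under OT. YAP1 KO cells had 0.847, 0.927 and 0.881 FPKM and then 1.36, 1.3 and 1.31. All OT libraries were higher than the DMSO libraries of their genotype, with log2 changes of 0.25 and 0.30. No test is given for these, for the reason of the filter stated above.

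**Figure D3:**
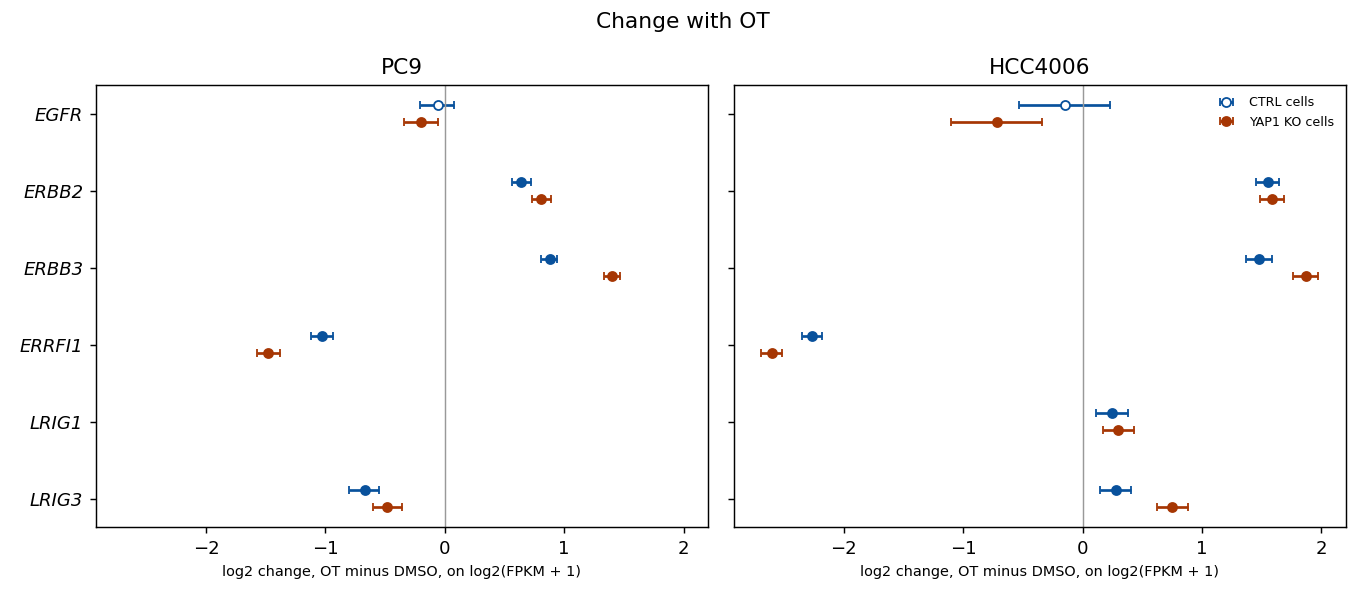
Log2 change in FPKM + 1 with OT against DMSO for each tested gene, in CTRL and YAP1 KO cells of PC9 and HCC4006; filled points are called at an adjusted p under 0.05, open points are not, and error bars are 95% confidence intervals. ERBB2 and ERBB3 lie to the right of 0 and ERRFI1 to the left in all 4 comparisons, and LRIG3 lies to the left in PC9 and to the right in HCC4006. LRIG1 was not tested in PC9. Its HCC4006 points are drawn filled, but it passed the filter there only through the OT groups, so no call is read from them.

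YAP1 KO was compared with CTRL within each treatment to ask what loss of YAP1 does to these genes. Under OT, YAP1 KO cells of both lines had more ERBB3 and less ERRFI1 than CTRL cells, and ERBB2 did not differ beyond the spread of the replicates. LRIG3 was higher in YAP1 KO cells under OT in both lines. In HCC4006 under OT the summed fibroblast markers were at 19.3 to 20.5 FPKM in CTRL and 7.3 to 7.72 in YAP1 KO cells, the summed epithelial markers at 4360 to 4730 and 3100 to 3150, and CD68 at 82.8 ± 1.13 and 107 ± 0.848. In PC9 the fibroblast sums were 1.9 to 2.18 and 2.33 to 2.71 and the epithelial sums 9290 to 9580 and 7760 to 7990. The part of these cell type markers in the genotype differences was not tested. Of the genes tested, 4 of 5 were called in PC9, against 53.7% of all genes, and 3 of 6 in HCC4006, against 43.6%. Under DMSO the counts were 3 of 5 against 39.9% and 2 of 6 against 17.8%. With 5 or 6 genes, nothing is read from these counts.

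ERBB3 under OT was 1.37 times as high in PC9 YAP1 KO as in CTRL cells (log2 difference 0.44, limma adjusted p = 2.65e-07) and 1.54 times in HCC4006 (0.60, adjusted p = 1.83e-06). The libraries did not overlap in either line. Under DMSO its differences were small and of opposite sign, -0.09 in PC9 (limma adjusted p = 0.0399) and 0.22 in HCC4006 (adjusted p = 0.0105). The call in PC9 was lost in 8 of the 20 alternative settings tried, among them leaving out any of CTRL DMSO replicates 1 to 3, CTRL OT replicate 2, either of YAP1 KO DMSO replicates 2 and 3, and replicate 2 of YAP1 KO OT (-0.10 to -0.07). That in HCC4006 was lost without YAP1 KO DMSO replicate 1 (adjusted p = 0.0515).

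ERRFI1 was lower in YAP1 KO cells under both treatments. Under OT it stood at 48.4% of the CTRL mean in PC9 (log2 difference -0.84, limma adjusted p = 2.28e-08) and 64.9% in HCC4006 (-0.55, adjusted p = 6.65e-07). Under DMSO it stood at 74.2% (-0.39, limma adjusted p = 1.92e-05) and 85.9% (-0.22, adjusted p = 0.00346), and no libraries overlapped. The HCC4006 call under DMSO was lost with libraries scaled to 1 FPKM sum (adjusted p = 0.083).

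ERBB2 differed little between genotypes. Under OT the log2 difference was -0.01 in PC9 (limma adjusted p = 0.871, 95% interval -0.09 to 0.07) and 0.02 in HCC4006 (adjusted p = 0.722, -0.08 to 0.12), and its sign changed with the scaling in both lines. Under DMSO it was -0.18 in PC9 (limma adjusted p = 0.00265), where all YAP1 KO libraries were lower, and -0.02 in HCC4006 (adjusted p = 0.838, -0.12 to 0.08).

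EGFR under OT was lower in PC9 YAP1 KO cells by 0.29 on the log2 scale (limma adjusted p = 0.00288), a call kept in all 20 alternative settings. In HCC4006 the difference under OT was -0.45 and just missed the threshold (limma adjusted p = 0.0506), although every YAP1 KO library was below every CTRL library. It passed in 8 of the 20 alternatives, among them without HCC4006 CTRL OT replicate 1 (-0.17, adjusted p = 0.0209), replicate 2 (-0.57, 0.0297) or replicate 3 (-0.62, 0.0124). Under DMSO the differences were -0.15 in PC9 and 0.12 in HCC4006, and neither was called (limma adjusted p = 0.0875 and 0.707), although the PC9 value passed without CTRL OT replicate 1 (adjusted p = 0.046).

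LRIG3 under OT was higher in YAP1 KO cells by a log2 difference of 0.22 in PC9 (limma adjusted p = 0.00569) and 0.47 in HCC4006 (adjusted p = 5.37e-05). Under DMSO the differences were 0.03 and -0.00, with overlapping libraries (limma adjusted p = 0.745 and 0.973). LRIG1 in HCC4006 differed by 0.12 under OT and 0.06 under DMSO, neither of which was called (limma adjusted p = 0.131 and 0.524).

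**Figure D4:**
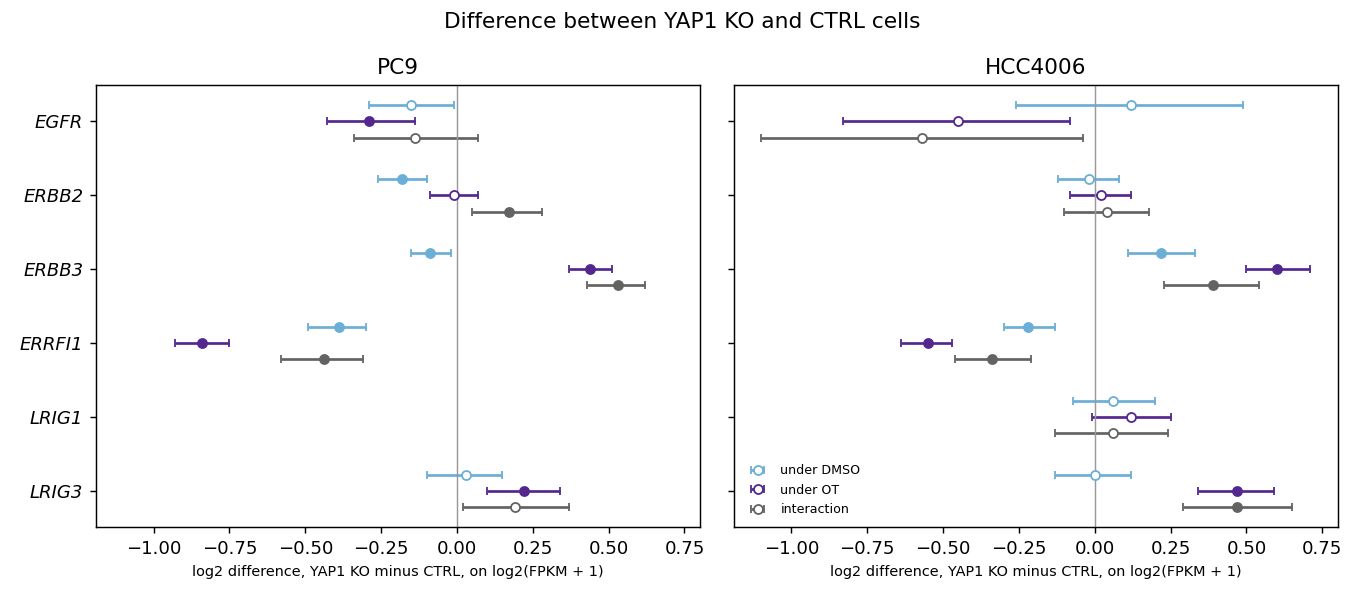
Log2 difference in FPKM + 1 of YAP1 KO against CTRL cells for each tested gene, under DMSO and under OT, in PC9 and HCC4006. Points labelled interaction give the OT change of YAP1 KO cells minus that of CTRL cells. Filled points are called at an adjusted p under 0.05, open points are not, and error bars are 95% confidence intervals. ERBB3 under OT lies to the right of 0 and ERRFI1 to the left in both lines, and the intervals of ERBB2 under OT span 0.

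Whether the OT response itself depended on the genotype was tested by the interaction, in which the OT change of CTRL cells is subtracted from that of YAP1 KO cells. ERBB3 rose more in YAP1 KO cells, by 0.53 in PC9 (SE 0.0434, limma adjusted p = 6.14e-06) and 0.39 in HCC4006 (SE 0.07, adjusted p = 0.00246). ERRFI1 fell further in YAP1 KO cells, by 0.44 (SE 0.0605, limma adjusted p = 2.38e-04) and by 0.34 (SE 0.057, adjusted p = 0.00152). These 4 calls held in all 20 alternative settings, and 3 of the 5 genes tested in PC9 and 3 of the 6 in HCC4006 were called, against 27.0% and 18.6% of all genes.

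No other gene was called for the interaction in both lines. LRIG3 had 0.47 in HCC4006 (SE 0.0818, limma adjusted p = 0.00187) and 0.19 in PC9, which was not called (adjusted p = 0.0909) but passed without the intensity trend (adjusted p = 0.0381). ERBB2 had 0.17 in PC9 (limma adjusted p = 0.0332), a call lost with median-of-ratios scaling (adjusted p = 0.0739) and without CTRL DMSO replicate 1 or 2, CTRL OT replicate 2 or 3, replicate 3 of YAP1 KO DMSO or of YAP1 KO OT (0.14 to 0.17). In HCC4006 ERBB2 had 0.04 (limma adjusted p = 0.726). EGFR had -0.14 in PC9 (limma adjusted p = 0.305) and -0.57 in HCC4006 (adjusted p = 0.133). Without HCC4006 CTRL OT replicate 1 the EGFR value in HCC4006 was -0.29 (adjusted p = 0.0143), and without replicate 3 of that group -0.73 (adjusted p = 0.0426).

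The lines were set against each other in 1 fit of all 24 libraries. CTRL cells under DMSO differed at each of the 5 tested genes besides LRIG1, and 82.6% of all genes were called in that comparison. HCC4006 had more ERRFI1, by 1.92 on the log2 scale (limma adjusted p = 3.17e-20), and more LRIG3 (0.84, adjusted p = 4.23e-12), and less ERBB3 (-0.54, adjusted p = 5.69e-11). ERBB2 was higher by 0.11 (limma adjusted p = 0.0121), but not with libraries scaled to 1 FPKM sum (0.05, adjusted p = 0.458). EGFR differed by -0.34 (limma adjusted p = 0.0316). That call was lost with median-of-ratios scaling (adjusted p = 0.0801). It was also lost without PC9 CTRL DMSO replicate 2 or HCC4006 CTRL DMSO replicate 2 or 3. Without HCC4006 CTRL OT replicate 1, which plays no part in these means, the EGFR difference was -0.34 (limma adjusted p = 2.51e-05). LRIG1 was near 0.803 FPKM in HCC4006 and listed at 0 in PC9, so no fold is given.

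The OT response in CTRL cells also differed, for 4 of the 5 tested genes besides LRIG1 against 65.3% of all genes. ERBB2 and ERBB3 rose more in HCC4006, by 0.91 (limma adjusted p = 2.05e-11) and 0.60 (adjusted p = 8.32e-09), and ERRFI1 fell further, by 1.23 (adjusted p = 8.92e-14). LRIG3 differed by 0.95 (limma adjusted p = 6.69e-10), with opposite directions in the lines. The EGFR responses were not called different (-0.09, limma adjusted p = 0.72) unless HCC4006 CTRL OT replicate 1 was left out (-0.37, adjusted p = 0.00123). In YAP1 KO cells, where that library plays no part in the means, EGFR fell further in HCC4006 by 0.52 (limma adjusted p = 0.0282), and 5 of 5 tested genes besides LRIG1 were called against 64.6% of all genes. Without HCC4006 CTRL OT replicate 1 the EGFR difference was also -0.52 (limma adjusted p = 1.93e-05). With that library kept, the EGFR call was lost with libraries scaled to 1 FPKM sum (-0.44, adjusted p = 0.114). It was also lost without PC9 YAP1 KO DMSO or OT replicate 3, HCC4006 YAP1 KO DMSO replicate 1 or 3, or HCC4006 YAP1 KO OT replicate 3 (-0.51 to -0.49).

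The effect of YAP1 KO was also compared between the lines. Under OT 3 of 6 tested genes were called, against 42.4% of all genes, and under DMSO 3 of 6, against 29.4%. The count under OT was 5 without the filter and 1 with libraries scaled to 1 FPKM sum. EGFR was not called under DMSO (0.27, limma adjusted p = 0.344), but passed without HCC4006 CTRL OT replicate 1 (0.27, adjusted p = 0.0174). Under OT it was not called with that library (-0.17, limma adjusted p = 0.532) or without it (0.12, adjusted p = 0.308). Under OT the ERRFI1 deficit of YAP1 KO cells was smaller in HCC4006 (difference 0.29, limma adjusted p = 1.85e-04), and the ERBB3 excess was larger (0.16, adjusted p = 0.019). LRIG3 showed a larger excess in HCC4006 as well (0.25, limma adjusted p = 0.00904). The ERBB3 call was lost with both other scalings (adjusted p = 0.0601 and 0.218) and without HCC4006 CTRL OT replicate 3 or YAP1 KO OT replicate 2, and the LRIG3 call with a pseudocount of 0.1 (0.15, adjusted p = 0.269) and with libraries scaled to 1 FPKM sum (adjusted p = 0.054). These differences are on log2(FPKM + 1), where the same fold of a gene with few FPKM counts for less.

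Across the 8 groups the order of the levels separated the genes. For ERBB3 the order ran from HCC4006 YAP1 KO under OT (42.2 ± 1.42 FPKM, SD, n = 3) over PC9 YAP1 KO under OT (35.8 ± 0.661) to HCC4006 CTRL under DMSO (9.19 ± 0.272). Only the CTRL OT groups, 27.4 ± 1.56 in HCC4006 and 26.1 ± 0.575 in PC9, overlapped as neighbours in that order. ERBB2 formed pairs, since CTRL and YAP1 KO libraries overlapped under OT in each line and under DMSO in HCC4006, and both HCC4006 OT groups (47.8 ± 0.992 and 47.1 ± 2.16) stood above all others. ERRFI1 ran from HCC4006 CTRL under DMSO (52.1 ± 0.766) down to PC9 YAP1 KO under OT (2.85 ± 0.151), and only HCC4006 CTRL under OT and PC9 YAP1 KO under DMSO overlapped as neighbours. EGFR covered the narrowest range of these, from 17.5 ± 0.915 in PC9 CTRL under DMSO to 8.6 ± 0.21 in HCC4006 YAP1 KO under OT, and most neighbours in its order overlapped.

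Over the 12 libraries of a line, ERBB3 and ERBB2 moved together, with a Pearson r of log2(FPKM + 1) of 0.953 in PC9 and 0.966 in HCC4006. ERBB3 and ERRFI1 moved oppositely (-0.952 and -0.994). LRIG3 and ERBB3 had r of -0.853 in PC9 and 0.934 in HCC4006. These values describe 4 groups that share the treatment, and carry no test.

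For each of the 5 genes that passed the filter in both lines, the 3 genes of most similar pattern were taken from 11744 by Pearson r over the 24 libraries, after each line's mean was subtracted. The groups share the treatment, so a shared direction with OT follows from this choice, and the r values carry no test. ERBB2 was most like VGLL4, a cofactor of TEAD factors, UBA7, the activating enzyme of ISG15, and TMC6, each with r of 0.994. VGLL4 was at 6.91 ± 0.0738 FPKM in HCC4006 CTRL cells under DMSO and 17.2 ± 1.01 under OT. ERBB3 was most like GRAMD1C, PTPN6, a tyrosine phosphatase, and GABRP, a subunit of a GABA receptor, each with r of 0.993. GABRP was at 4.78 ± 0.478 FPKM in HCC4006 CTRL and 9.41 ± 0.134 in YAP1 KO cells under OT, and below 0.1 under DMSO in HCC4006.

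ERRFI1 was most like YBX1, an RNA-binding protein (0.994), TYMS, thymidylate synthase (0.994), and ATIC, a purine synthesis enzyme (0.992). TYMS went from 155 ± 5.3 to 48.2 ± 1.29 FPKM with OT in PC9 CTRL cells and from 67 ± 2.42 to 3.48 ± 0.139 in HCC4006 CTRL cells. LRIG3 was most like RAVER2 (0.978), EPB41L4B (0.97) and GPD1L (0.967). EPB41L4B, picked for this likeness, was lower with OT in PC9 CTRL cells (3.54 ± 0.318 to 0.888 ± 0.032 FPKM) and higher in HCC4006 CTRL cells (3.18 ± 0.405 to 5.16 ± 0.247).

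EGFR was most like FAT1 (0.947), DOCK5 (0.937) and SSH1 (0.876), and all 3 were also high in HCC4006 CTRL OT replicate 1. FAT1 was at 3.69 FPKM there against 2.38 and 2.29 in the other replicates, DOCK5 at 3.4 against 2.08 and 1.91, and SSH1 at 4.59 against 3.34 and 3.36. Without that library the 3 most similar genes were FASN, the fatty acid synthase (0.958), AP1S1 (0.956) and DNAJC11 (0.955), while DOCK5 stood at rank 9 (0.947), FAT1 at rank 22 (0.94) and SSH1 at rank 819 (0.854).

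The other genes of the pathway were read from 5 lists by function, made with earlier results of these data known. At most 4 genes are named per list, those with the largest OT changes in CTRL cells among genes called in at least 1 line. That the named genes passed the threshold is therefore no result in itself. Of the 11 ligands of the receptors, 6 were tested in PC9 and 5 in HCC4006. With OT in CTRL cells 0 rose and 4 fell in PC9, against 32.0% and 40.9% of all genes, while in HCC4006 2 rose and 3 fell, against 45.0% and 36.6%. In HCC4006 the genes called higher were 55.1% of all called genes, and 66.6% with libraries scaled to 1 FPKM sum. The tested ligands had median changes of -0.28 and -1.09 on the log2 scale, against -0.04 and 0.09 over all genes. AREG, amphiregulin, an EGFR ligand, changed by -0.98 and -1.93. In PC9 CTRL cells it went from 1.33 ± 0.0986 to 0.181 ± 0.0775 FPKM. HCC4006 CTRL cells went from 4.24 ± 0.446 to 0.374 ± 0.108. In both lines AREG passed the filter only through the DMSO groups, so its test had to lean toward a fall. No p-value is given for it, although the counts of falls include it. TGFA, another EGFR ligand, changed by -0.29 and -1.32 (limma adjusted p = 9.85e-05 and 9.91e-10).

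HBEGF, a ligand of EGFR and ERBB4, went from 4.24 ± 0.35 to 0.469 ± 0.123 FPKM with OT in PC9 CTRL cells (log2 change -1.83). In PC9 it passed the filter only through the DMSO groups, so no p-value is given. The PC9 count of ligands that fell includes it. In HCC4006 CTRL cells HBEGF rose (0.37, limma adjusted p = 7.85e-05). In HCC4006 YAP1 KO cells it fell with OT (-0.31, limma adjusted p = 3.23e-04), and its interaction was -0.67 (adjusted p = 1.60e-04). Both rest on low values, 0.579 ± 0.0229 FPKM under DMSO and 0.277 ± 0.0213 under OT in YAP1 KO cells. HBEGF passed the filter in HCC4006 only through the CTRL groups. NRG1, the neuregulin that ERBB3 binds, was below the filter in PC9. In HCC4006 it went from 7.99 ± 0.503 to 3.23 ± 0.404 FPKM with OT in CTRL cells and from 6.09 ± 0.63 to 0.628 ± 0.0541 in YAP1 KO cells. Its interaction was -1.03 (limma adjusted p = 1.11e-04), so that the group with the most ERBB3 RNA in HCC4006 was also the one with the least NRG1 RNA.

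Adaptors and proximal effectors of the receptors were all expressed. With OT in CTRL cells 8 of 16 rose and 5 fell in PC9, while in HCC4006 11 of 16 rose and 3 fell, against 32.0% and 40.9% of all genes in PC9 and 45.0% and 36.6% in HCC4006. Their medians were 0.10 and 0.46, against -0.04 and 0.09. GAB2, an adaptor that carries PI3K and SHP2 signals, rose by 1.36 (limma adjusted p = 7.72e-09) and 2.22 (adjusted p = 1.13e-10). ERBB2IP, a scaffold that binds ERBB2, rose by 0.69 and 1.31 (limma adjusted p = 2.13e-08 and 8.43e-09). SOS2, a RAS exchange factor, rose by 0.73 and 1.25 (adjusted p = 9.95e-07 and 2.87e-08), and PTPN11, which encodes SHP2, fell by 0.71 and by 0.64 (adjusted p = 2.14e-09 and 1.04e-06).

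Genes of receptor ubiquitylation and traffic, of which GRB2 is also in the adaptor list, moved both ways. With OT in CTRL cells 6 of 16 rose and 7 fell in PC9, against 32.0% and 40.9% of all genes, while in HCC4006 7 rose and 5 fell, against 45.0% and 36.6%. These shares are near those of all genes. CBLB, a ubiquitin ligase that targets receptor kinases, rose by 1.64 and 1.72 (limma adjusted p = 3.04e-10 and 2.63e-09). RNF41, a ubiquitin ligase known to act on ERBB3, rose by 0.23 and 0.78 (limma adjusted p = 0.00198 and 2.17e-08). SH3KBP1, a CBL-binding adaptor of endocytosis, fell by 0.57 and by 1.97 (adjusted p = 1.38e-08 and 2.42e-12), and STAM, an endosomal sorting protein, fell by 0.37 and by 0.56 (adjusted p = 8.48e-05 and 1.23e-05).

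Other receptor-level inhibitors, a list of 13 with all members tested, are proteins and phosphatases that restrain receptor kinases. With OT in CTRL cells 3 rose and 10 fell in PC9, against 32.0% and 40.9% of all genes, while in HCC4006 2 rose and 5 fell, against 45.0% and 36.6%. Their medians were -0.36 and -0.13, against -0.04 and 0.09. SOCS2, which targets activated receptors for degradation, changed by -0.45 in PC9 and 1.81 in HCC4006. PTPRK, a receptor phosphatase, changed by 0.30 and 1.15, SOCS4 by -0.57 and -0.62 and GRB14 by -0.49 and -0.39. Each of these 8 changes passed the limma threshold, with the lowest adjusted p, 5.39e-11, for SOCS2 in HCC4006. These genes were picked among called genes for the size of their OT change, so their passing was largely fixed by the choice. GRB14 was low in HCC4006 CTRL cells, at 0.972 ± 0.182 FPKM under DMSO and 0.496 ± 0.044 under OT. In HCC4006 it passed the filter only through the DMSO groups, with 1.45 to 1.95 FPKM in YAP1 KO cells. Its test there had to lean toward a fall, so no p-value is given. The HCC4006 count of inhibitors that fell includes it.

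Of 54 other receptor tyrosine kinases, 21 were tested in PC9 and 30 in HCC4006. With OT in CTRL cells 6 rose and 12 fell in PC9, against 32.0% and 40.9% of all genes, while in HCC4006 12 rose and 11 fell, against 45.0% and 36.6%. Their medians were -0.20 and 0.05, against -0.04 and 0.09. EPHA2, an ephrin receptor, fell by 1.85 and by 2.86 (limma adjusted p = 1.63e-11 and 5.28e-13), and in the same direction as ERRFI1. MET, the hepatocyte growth factor receptor, rose by 0.68 in PC9 and fell by 2.27 in HCC4006 (adjusted p = 1.39e-09 and 3.92e-12). FGFR2 rose by 1.30 in HCC4006 (limma adjusted p = 2.17e-08). KDR was at 5.09 ± 0.68 FPKM under OT against 0.195 ± 0.0191 under DMSO in HCC4006 CTRL cells. It passed the filter only through the OT groups, so its test had to lean toward a rise. The HCC4006 count of kinases that rose and their median include KDR. COL1A2, of the fibroblast list, was at 15.4 ± 0.586 FPKM in those CTRL OT libraries against 1.26 ± 0.212 under DMSO, and its part in the result was not tested.

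Between genotypes under OT, members of the lists were called in both directions. In PC9 28.5% of all genes were called higher and 25.2% lower in YAP1 KO cells, and in HCC4006 27.2% and 16.4%. Higher calls were 53% and 62.3% of the calls, and 42.6% and 50.5% with median-of-ratios scaling. Of the ligands, 1 was higher and 1 lower in PC9, while in HCC4006 1 was higher and 3 lower. The lower ones in HCC4006 include HBEGF, at 2.4 ± 0.0417 FPKM in CTRL and 0.277 ± 0.0213 in YAP1 KO cells. HBEGF passed the filter there only through the CTRL groups, so its test had to lean toward a lower level. Among the adaptors 9 were higher and 3 lower in PC9, while in HCC4006 6 were higher and 3 lower. Of the other receptor tyrosine kinases, 6 were higher and 9 lower in PC9, while in HCC4006 3 were higher and 10 lower, with EPHA2 among the lower ones in both lines (-1.64 and -1.75, limma adjusted p = 4.49e-10 and 5.18e-10).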

How the data were processed

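Messenger RNA of 24 libraries, 8 groups of 3 replicates, was read from 1 table in which the authors deposited FPKM per gene. Per the submitters' processing notes the tools were STAR 2.5.1b, Cufflinks 2.2.1 and DESeq2 1.10.1, with no role given, on hg19, also named GRCh37. No source used here names the annotation. Output of DESeq2 was not used here. Libraries came from a stranded kit, per the labels' protocols. Symbols in 28 rows were date-like and are not named, and 1 blood marker is not reported here.

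FPKM are not counts, so limma 3.58.1 in R 4.3.3 was fitted to log2(FPKM + 1), which understates changes of low genes, with empirical Bayes moderation and an intensity trend, on 12685 genes in PC9, 13113 in HCC4006 and 13996 in the fit of both lines. Genes needed 1 FPKM in 3 libraries of the fit. P-values were Benjamini-Hochberg adjusted over all genes of the fit. The script was tested on simulated data. FPKM sums ran from 507120 to 660459 per library. Absolute depth is unknown, so no counting interval is given.

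The genes and lists were chosen with earlier results of these data known. Named genes were the 7 genes, YAP1, DUSP6, up to 4 genes per list with the largest mean absolute OT change in CTRL cells among called genes, and 3 genes most like each gene that passed the filter in both lines. EGFR's chromosomal neighbours and the genes most like EGFR without 1 library were added after seeing the data.

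Alternatives were other pseudocounts, filters and scalings, no trend, a replicate block and leaving out each library. Same-numbered libraries deviated together, with every correlation over 0.1, only between CTRL DMSO and CTRL OT of HCC4006 (r 0.134 to 0.146). The labels do not say what a number marks. In that comparison the block changed no call of these genes.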

Additional observations from a re-analysis of the deposited data

Results flagged for a closer look

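The entries here are differences of a response between genotypes or between lines that passed the limma threshold (adjusted p under 0.05) among the 7 genes. No test for an outlying value was run within groups of 3 libraries.

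The OT response differed between genotypes for 3 genes in each line. With the CTRL change subtracted from the YAP1 KO change, the difference in PC9 was 0.53 for ERBB3, -0.44 for ERRFI1 and 0.17 for ERBB2 (limma adjusted p = 6.14e-06, 2.38e-04 and 0.0332). In HCC4006 it was 0.39 for ERBB3, -0.34 for ERRFI1 and 0.47 for LRIG3 (adjusted p = 0.00246, 0.00152 and 0.00187).

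The OT response differed between the lines for most of the genes. In CTRL cells the HCC4006 change minus the PC9 change was 0.91 for ERBB2, 0.60 for ERBB3, -1.23 for ERRFI1 and 0.95 for LRIG3 (limma adjusted p = 2.05e-11, 8.32e-09, 8.92e-14 and 6.69e-10). In YAP1 KO cells it was -0.52 for EGFR, 0.78 for ERBB2, 0.46 for ERBB3, -1.13 for ERRFI1 and 1.23 for LRIG3 (adjusted p = 0.0282, 1.76e-10, 3.18e-07, 2.57e-13 and 1.06e-11). LRIG1 had 0.24 in CTRL and 0.30 in YAP1 KO cells. It is listed at 0 in nearly all PC9 libraries and passed the filter only through the OT groups of HCC4006, so no p-value is given and no difference is read from it. With a pseudocount of 0.01 its values were -0.05 and 0.57.

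The effect of YAP1 KO differed between the lines for a smaller number. Under DMSO the HCC4006 difference minus the PC9 difference was 0.16 for ERBB2, 0.30 for ERBB3 and 0.18 for ERRFI1 (limma adjusted p = 0.0345, 2.60e-04 and 0.013). Under OT it was 0.16 for ERBB3, 0.29 for ERRFI1 and 0.25 for LRIG3 (adjusted p = 0.019, 1.85e-04 and 0.00904). The ERBB2 call under DMSO was lost with both other scalings (adjusted p = 0.0504 and 0.0845), with the replicate block and without any of 7 libraries: PC9 CTRL DMSO replicate 1 or 2, PC9 YAP1 KO DMSO replicate 3, HCC4006 CTRL DMSO replicate 1 or 2 and HCC4006 YAP1 KO DMSO replicate 1 or 3. These comparisons share their libraries with one another, so they are not independent.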

How the results depend on the processing

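Of the changes of single genes, 628 kept direction and call, 11 reversed, 8 gained and 18 lost a call over the settings that kept all libraries. With 1 library left out the numbers were 1324, 13, 10 and 33. No reversed value was called under the setting that reversed it. The number of genes called for the difference of the YAP1 KO effect under OT between lines was 3, and was 5 with no filter and 1 with libraries scaled to the same FPKM sum. For YAP1 KO under DMSO in HCC4006 it was 2, and was 1 with the same FPKM sum and 1 to 2 with 1 library left out, the lower without YAP1 KO DMSO replicate 1. The cause was not tested.

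Reversed values, on the log2 scale, were as follows. With a pseudocount of 0.01 the LRIG1 line difference in the CTRL OT response, 0.24 before, was -0.05. With median-of-ratios scaling ERBB2 had -0.03 for YAP1 KO under OT and -0.00 for the interaction in HCC4006, and -0.01 for the line difference of the YAP1 KO effect under OT. With the same FPKM sum ERBB2 had 0.03 for YAP1 KO under OT in PC9, 0.02 for YAP1 KO under DMSO in HCC4006 and -0.00 for the line difference under OT. EGFR then had 0.06 for OT in HCC4006 CTRL cells and 0.07 for its line difference, and LRIG3 0.03 for YAP1 KO under DMSO in HCC4006 and 0.00 for its line difference.

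With 1 library left out, EGFR ran from -0.43 to 0.01 for OT in HCC4006 CTRL cells, from -0.37 to 0.08 for its line difference and from -0.33 to 0.12 for the line difference of the YAP1 KO effect under OT. ERBB2 ran from -0.03 to 0.02 (PC9) and -0.02 to 0.04 (HCC4006) for YAP1 KO under OT, from -0.01 to 0.05 for their difference and from -0.04 to 0.01 for YAP1 KO under DMSO in HCC4006. LRIG3 ran from -0.05 to 0.03 in that last comparison.

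The replicate block changed 3 calls of these genes. EGFR passed for YAP1 KO under OT in HCC4006 (-0.45, limma adjusted p = 0.0364). ERBB2 no longer passed for the line difference of the YAP1 KO effect under DMSO (0.16, adjusted p = 0.053). For the CTRL DMSO level the block compares the lines at replicate 1 of each. Its EGFR value of -0.22 (limma adjusted p = 0.214) is thus another quantity than the -0.34 of the main fit. It is among the lost calls counted above, but nothing is read from it. Scaling to the same FPKM sum moved the median of all genes for OT in HCC4006 CTRL cells from 0.09 to 0.28 and the share of called genes that were higher from 55.1% to 66.6%. ERBB2, ERBB3 and ERRFI1 kept their OT direction and call there. Genes called for YAP1 KO under DMSO in HCC4006 numbered 2340. Leaving out replicate 1 or 2 of the YAP1 KO DMSO group there gave 1443 and 1486. Depth behind low genes such as ERBB4 and LRIG1 is unknown.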
